A study of Arabidopsis thaliana with 12 samples.

Results

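Arabidopsis thaliana roots take up nitrate and reduce it in a pair of steps, and the transcripts examined here are those of NIA1, NIA2 and NIR1, which encode the enzymes of these steps, and of CNX6 and SIRB, which act in the synthesis of cofactors the enzymes carry. These 5 genes were chosen by name for their place in the pathway, with earlier results of these data known. Each was measured by 1 probe set, so they are 5 of the 22746 probe sets tested. The probe sets were 259681_at for NIA1 (AT1G77760), 261979_at for NIA2 (AT1G37130), 265475_at for NIR1 (AT2G15620), 260572_at for CNX6 (AT2G43760) and 262417_at for SIRB (AT1G50170). A table of probe annotations supplied with the data gave the gene of 2 of them, CNX6 and SIRB, and the other 3 genes were assigned to their probe sets by the list that defined the set.

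Nitrate reductase turns nitrate into nitrite in the cytosol. It carries a molybdenum cofactor, haem and flavin, and Arabidopsis has 2 genes for it, NIA1 and NIA2. Nitrite enters plastids, where nitrite reductase, the product of NIR1, turns it into ammonium with electrons from ferredoxin. Nitrite reductase carries siroheme and an iron-sulfur cluster. CNX6 encodes the large subunit of molybdopterin synthase, which puts sulfur onto the precursor of the molybdenum cofactor, and SIRB encodes sirohydrochlorin ferrochelatase, which inserts iron in the last step of siroheme synthesis. Transcripts of nitrate and nitrite reductase are among the textbook targets of nitrate in roots.

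Seedlings were 15 days old, and RNA of their whole roots made up 4 groups of 3 samples. Wild type of the Col-0 accession received 5 mM KNO3 in one group and 5 mM KCl, the control salt, in another, both for 2 h. A double mutant, tga1/tga4, with lesions in the genes of the related bZIP factors TGA1 and TGA4, received the same salts. Beforehand all 4 groups had spent 14 days in hydroponic culture at 22 °C, with 16 h light and 8 h dark, on nitrogen-free salts to which ammonium succinate (0.5 mM) and sucrose (3 mM) were added. Ammonium was therefore the nitrogen source common to every group, and the salts were added when the lights came on. The mutant alleles are not given in the sources used here, and TGA1 and TGA4 themselves were not analysed here. Replicates are described as biological, with no word on what made them separate, so the tests rest on a spread that may include a technical share.

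Values are log2 expression values from single-channel Affymetrix arrays, as the authors deposited them, so a difference of 1 is a doubling of the array value. Sample medians lay between 2.21 and 2.41, and all 5 genes lay above the median in all 12 samples. The actin control's 3′ minus 5′ signal, a measure of RNA quality, ran from 1.54 to 2.46 under KCl and from 1.69 to 1.91 under KNO3. By genotype it ran from 1.81 to 2.46 in wild type and from 1.54 to 1.80 in the mutant, without overlap. The same measure of the GAPDH control overlapped, at -0.08 to 0.28 in wild type and -0.31 to 0.14 in the mutant. What part RNA quality has in the genotype comparisons was not tested. Of 9 listed root markers 3 were measured under a name, among them PYK10, a root beta-glucosidase, at 8.91 to 10.06 over the samples. PYK10 stood at a nitrate change of -0.59 in wild type, -0.46 in the mutant and -0.52 on average, and did not pass (limma adjusted p = 0.215, 0.380 and 0.062), though the average passed as lower under 5 other settings. EXPA7 and EXPA18, expansins of root hair cells, rose with nitrate in wild type, by 1.69 and 2.23 (limma adjusted p = 0.00547 and 0.00195), and stood at 0.54 and 0.73 in the mutant, where they did not pass. These mutant values ran from 0.10 to 0.87 and from 0.21 to 1.03 without 1 sample, and the difference between genotypes in the response, -1.15 and -1.50, did not pass (limma adjusted p = 0.999 for both). Under KCl, EXPA7 stood at 3.80 ± 0.79 in the mutant and 2.72 ± 0.08 in wild type (mean ± SD). EXPA18 stood at 4.12 ± 0.90 and 2.90 ± 0.20. Under KNO3 the mutant and wild-type means were 4.33 and 4.41 for EXPA7 and 4.85 and 5.13 for EXPA18. The KCl differences, 1.07 and 1.23, did not pass (limma adjusted p = 0.754 for both). At an unadjusted p under 0.05 in limma, 2 of the 3 root markers passed under KCl, against 4.7% of all probe sets. For the difference in the response 2 passed too, against 3%. The 3 root markers were also summed as unlogged values, a sum made up almost wholly of PYK10. As log2 it ran from 9.84 to 10.03 under KCl and from 9.04 to 10.11 under KNO3. Of 8 shoot markers 1 was measured under a name, the rubisco activase gene RCA. It stood at 3.94 to 4.83 under KCl and 3.69 to 4.06 under KNO3, with an average nitrate change of -0.40 (limma adjusted p = 0.154). What part these markers have in the results below was not tested. In whole roots, a change in the number of cells that express a gene and a change in RNA per cell cannot be told apart.

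NIR1 had the largest nitrate response of the 5. In wild type its KCl samples read 4.77, 4.46 and 4.73 and its KNO3 samples 10.73, 10.67 and 10.90. In tga1 tga4 the KCl samples read 5.06, 4.88 and 4.56 and the KNO3 samples 10.66, 10.49 and 10.99. In both genotypes every KNO3 sample lay far above every KCl sample, and within a salt the genotypes overlapped. NIR1 rose by 6.11 ± 0.16 in wild type (log2 change ± SE, n = 3 per group), a 69.3-fold change with a 95% confidence interval of 54.0 to 88.9, and by 5.88 ± 0.16 in the mutant, 59.0-fold with an interval of 45.9 to 75.7. The limma adjusted p-values were 1.81e-09 and 2.29e-09 (Benjamini-Hochberg over 22746 probe sets). In each genotype only 3 probe sets of the array had a greater increase.

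**Figure D1:**
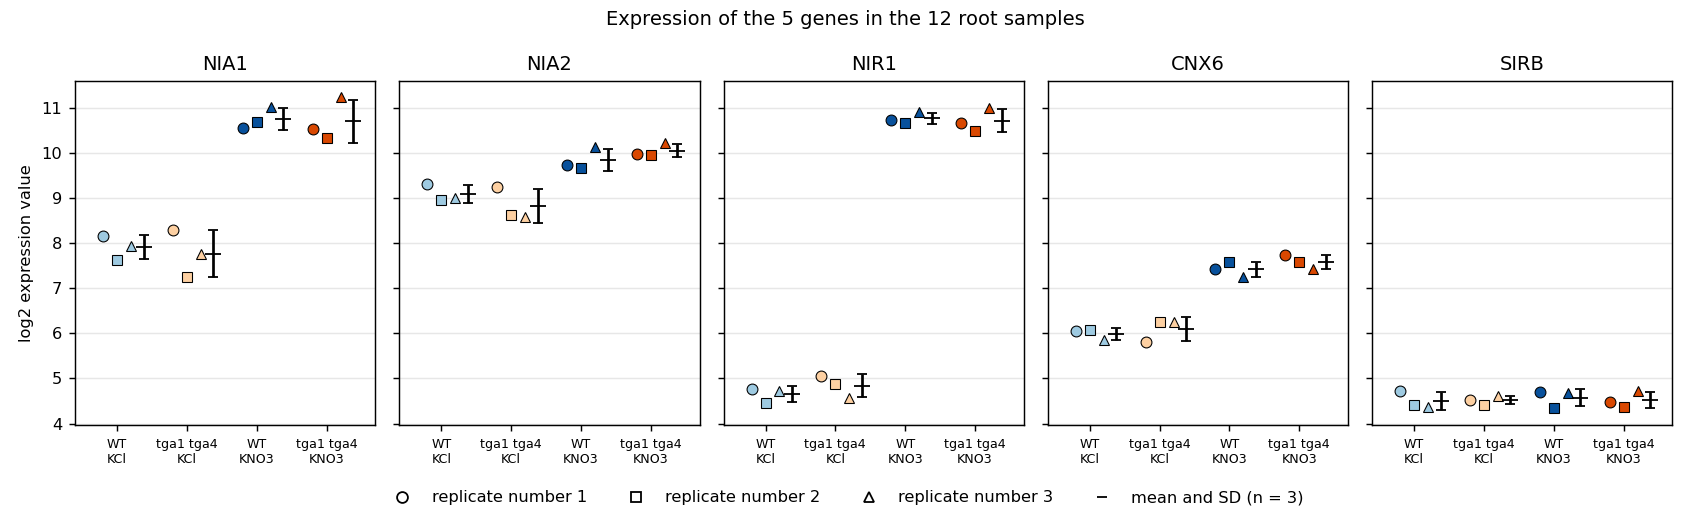
Log2 expression values (vertical axis, shared scale) of NIA1, NIA2, NIR1, CNX6 and SIRB in the 12 root samples, by group of genotype and salt. Marker shapes give the replicate number and bars the mean and SD of 3 samples; the KNO3 samples of NIA1, NIA2, NIR1 and CNX6 all lie above their KCl samples, while those of SIRB overlap.

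The nitrate reductase genes both rose, by unequal amounts. NIA1 stood at 8.15, 7.63 and 7.94 under KCl and 10.54, 10.68 and 11.01 under KNO3 in wild type. In tga1 tga4 it stood at 8.28, 7.25 and 7.77 under KCl and 10.52, 10.32 and 11.24 under KNO3. The salts did not overlap in either genotype, and the genotypes overlapped within each salt. NIA1 rose by 2.83 ± 0.28 in wild type and 2.93 ± 0.28 in the mutant (n = 3 per group, limma adjusted p = 6.79e-05 and 5.03e-05), which is 7.13-fold (95% interval 4.65 to 10.9) and 7.62-fold (4.97 to 11.7).

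NIA2 had the smaller change. In wild type its KCl samples read 9.30, 8.95 and 8.99 and its KNO3 samples 9.73, 9.67 and 10.12. In tga1 tga4 the KCl samples read 9.25, 8.63 and 8.58 and the KNO3 samples 9.97, 9.95 and 10.21. Again the salts did not overlap, although the gap in wild type was narrow, from 9.30 in the highest KCl sample to 9.67 in the lowest KNO3 sample. NIA2 rose by 0.76 ± 0.19 in wild type, 1.69-fold (95% interval 1.27 to 2.27), and by 1.23 ± 0.19 in the mutant, 2.34-fold (1.75 to 3.13), with limma adjusted p of 0.0412 and 0.00235. The wild-type call was near the threshold of 0.05. It was lost with quantile normalization of the values (limma adjusted p = 0.0632) and without any 1 of 7 of the 12 samples, which were wild-type KCl replicates 2 and 3, wild-type KNO3 replicates 1 and 3, mutant KCl replicate 2 and mutant KNO3 replicates 1 and 2. The adjusted p over all 12 omissions ran from 0.0139 to 0.161, with changes of 0.62 to 0.87. Averaged over both genotypes, NIA2 rose by 0.99 ± 0.14 (n = 6 per salt, limma adjusted p = 0.000448), and this call held without any 1 sample, with adjusted p up to 0.00205. That average takes the 6 samples of a salt as unrelated. A random block that takes same-numbered samples of a salt as related gave an SE of 0.144 in place of 0.136 (limma adjusted p = 0.000715).

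Of the cofactor genes, CNX6 rose and SIRB did not pass. CNX6 stood at 6.05, 6.07 and 5.84 under KCl and 7.43, 7.58 and 7.25 under KNO3 in wild type, and at 5.80, 6.25 and 6.24 and then 7.73, 7.58 and 7.42 in tga1 tga4. No KCl sample reached the KNO3 samples of either genotype. It rose 2.69-fold in wild type (95% interval 2.14 to 3.39, limma adjusted p = 0.000112) and 2.80-fold in the mutant (2.22 to 3.52, limma adjusted p = 8.28e-05). SIRB stood at 4.73, 4.41 and 4.37 under KCl and 4.69, 4.35 and 4.67 under KNO3 in wild type. In the mutant it stood at 4.53, 4.42 and 4.61 under KCl and 4.48, 4.36 and 4.72 under KNO3. All 4 groups of SIRB overlapped. Its change was 0.07 in wild type and 0.00 in the mutant (limma adjusted p = 0.897 and 0.996), and the 95% interval of the average over both genotypes ran from 0.877-fold to 1.20-fold.

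Thus 4 of the 5 genes rose in wild type and the same 4 in the mutant, where 3.32% and 3.17% of all probe sets rose (5.51% and 5.12% passed in either direction). In these 4 the salts did not overlap within a genotype, a pattern that 20.6% of all probe sets had in wild type and 19.6% in the mutant, in either direction. Over both genotypes together, the same 4 had all 6 KNO3 samples above all 6 KCl samples, where 7.08% of probe sets had no overlap in either direction. The average response passed for the 4 as well, against 5.82% of probe sets that rose. The median average change over all probe sets was -0.01. The 5 genes were chosen with earlier results of these data known, so these shares are given as a description.

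The sizes of these changes were set against each other within the samples. For each of the 10 pairs of genes, the log2 difference between the pair in each sample was compared between salts by a two-sided exact permutation test, with salts permuted within each genotype over 400 arrangements. NIR1 changed by 3.12 more than NIA1, by 5.00 more than NIA2 and by 4.54 more than CNX6. NIA1 changed by 1.89 more than NIA2, with 2.07 in wild type and 1.70 in the mutant, and by 1.43 more than CNX6. Each of the 4 genes that rose changed more than SIRB, from 0.96 more for NIA2 to 5.96 more for NIR1. In these 9 pairs the exact p was 0.005, the smallest that the 400 arrangements can give, and 0.00556 adjusted over the 10 pairs. For a pair such as NIR1 and SIRB this p followed from the values already given, since the salts of NIR1 lay further apart than the whole range of SIRB. The genes were chosen with earlier results known, so the exact p is given as a description. This test treats samples of both genotypes as independent, although same-numbered samples of a salt were related. With both genotypes of a salt and number permuted together, 20 arrangements remain, the exact p of these 9 pairs was 0.1, the smallest these can give, and no pair could pass. NIA2 and CNX6 were the remaining pair: NIA2 changed by 0.46 less than CNX6 on average (exact p = 0.095, 0.095 adjusted over the 10 pairs), by 0.67 less in wild type and by 0.26 less in the mutant. The difference between NIA2 and CNX6 ran from -0.58 to -0.28 without 1 sample (adjusted p of the exact test 0.05 to 0.21). Probe sets differ in how their signal follows transcript amount, so these are differences between changes in array values, and the levels of different genes were not compared.

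**Figure D2:**
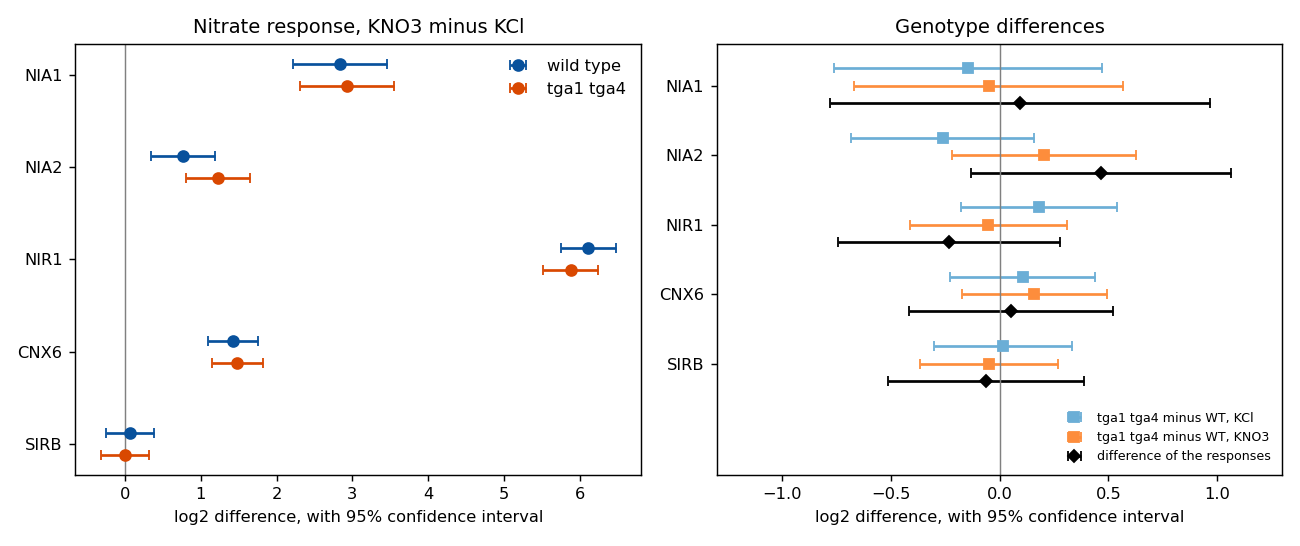
Log2 differences (horizontal axis) of the 5 genes with 95% confidence intervals from limma. The left panel gives KNO3 minus KCl in wild type and in tga1 tga4, where NIR1 lies near 6 and SIRB near 0; the right panel gives the genotype difference under each salt and the difference between both nitrate responses, all with intervals that include 0.

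Whether the response of these genes differs without TGA1 and TGA4 is the question of the design, and no genotype difference passed for any of the 5. Under KCl the mutant minus wild-type difference ran from -0.26 for NIA2 to 0.18 for NIR1, and under KNO3 from -0.05 for NIA1, NIR1 and SIRB to 0.20 for NIA2 (limma adjusted p of 1.00 for each under both salts). Without 1 sample these values ran from -0.48 to -0.14 for NIA2 and from 0.068 to 0.32 for NIR1 under KCl, and from 0.12 to 0.34 for NIA2 under KNO3. Of all probe sets 0.0176% passed under KCl, 0.0132% under KNO3 and 0.0044% for the difference between responses. At an unadjusted p under 0.05 in limma, 0 of the 5 genes passed in any of the 3 comparisons, against 4.7%, 1.75% and 3% of all probe sets. The genotypes overlapped for each of the 5 under both salts, and 9.14% of all probe sets did not overlap under KCl and 6.78% under KNO3. With shares this small, counts of 0 among 5 genes do not set these genes apart from the rest of the array. A p that misses the threshold does not show equal values, and the intervals give what the data allow. The difference between responses, mutant minus wild type, was -0.23 for NIR1 (95% interval -0.74 to 0.28, and -0.37 to -0.12 without 1 sample), 0.09 for NIA1 (-0.78 to 0.97), 0.05 for CNX6 (-0.42 to 0.52) and -0.06 for SIRB (-0.51 to 0.39). The interval was widest for NIA1, whose mutant samples had an SD of 0.51 under KCl and 0.49 under KNO3, against 0.26 and 0.24 in wild type. All these intervals take the samples as unrelated. A random block that takes same-numbered samples of a salt as related gave smaller SEs of the difference between responses. They were 0.31 in place of 0.40 for NIA1, 0.20 in place of 0.23 for NIR1, 0.19 in place of 0.21 for CNX6 and 0.17 in place of 0.21 for SIRB. None of these differences passed with the block.

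NIA2 had the largest difference between responses, 0.47 (95% interval -0.13 to 1.06, limma adjusted p = 0.999), and it ran from 0.34 to 0.68 without 1 sample. Within a replicate number, the mutant value of NIA2 lay below the wild-type value under KCl, by -0.05, -0.32 and -0.42 for numbers 1, 2 and 3. Under KNO3 it lay above, by 0.24, 0.28 and 0.09. This pattern of 1 sign in all 3 numbers of a salt and the opposite sign in the other salt was noticed in the values. It was found in NIA2 alone of the 5 genes, and in 3.53% of all probe sets. With salt and number as a random block, which takes same-numbered samples as related, the SE of this difference was 0.22 in place of 0.27 and it did not pass (limma adjusted p = 0.864).

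NIA1, NIA2 and NIR1 had their high samples at the same replicate number in both genotypes. Under KCl, the sample numbered 1 was the highest in both genotypes for these 3 genes, and under KNO3 the sample numbered 3 was the highest in both. For NIA1 the deviations from the group mean were 0.24 and 0.51 for the KCl samples numbered 1 and 0.27 and 0.55 for the KNO3 samples numbered 3, in wild type and mutant. This combined pattern was found in 2.93% of all probe sets. The KCl part alone was found in 16.1% and the KNO3 part alone in 22.1%. CNX6 went another way: its KNO3 samples numbered 3 were the lowest of both genotypes, by -0.17 and -0.16 from the group mean. SIRB had its lowest KNO3 sample in number 2 in both genotypes, by -0.22 and -0.16. These patterns of the numbers were noticed in the values, and the share of probe sets with the CNX6 or the SIRB pattern was not counted. What the replicate numbers stand for is not given in the sources used here. Neither the number as a block nor salt and number as a random block changed a call of the 5 genes.

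**Figure D3:**
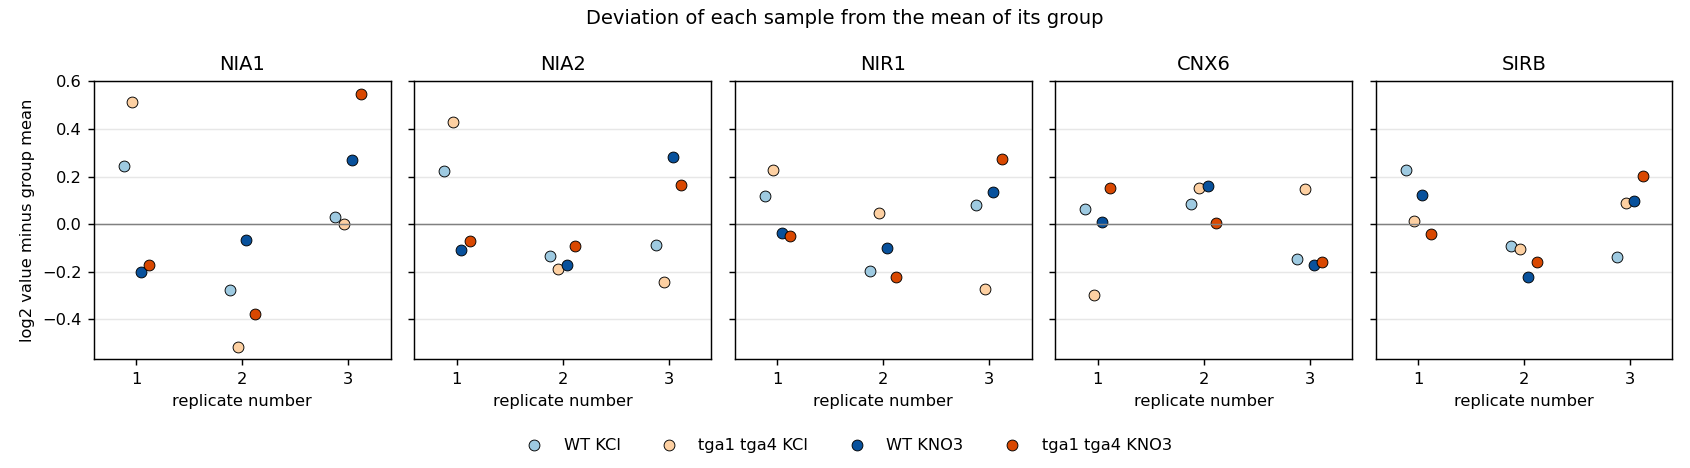
Deviation of each sample from the mean of its group (vertical axis, log2) by replicate number for the 5 genes, coloured by group. For NIA1, NIA2 and NIR1 both KCl samples numbered 1 and both KNO3 samples numbered 3 lie above 0.

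The range of the array bears on the sizes given for the most responsive genes. Under KNO3, 0.0264% to 0.0572% of probe sets were brighter than NIR1, depending on the sample, and 0.0132% to 0.106% were brighter than NIA1. Under KCl the share was 19.0% to 25.7% for NIR1 and 1.85% to 4.54% for NIA1. Their KNO3 values were thus at the bright end of the array, and whether signal was compressed there was not tested. NIA2 was already at the bright end under KCl, with 0.624% to 1.40% of probe sets brighter.

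Other genes around the pathway were taken from 11 lists of 83 loci, of which 18 were measured under a name, CNX6 and SIRB among them. The other loci may have probe sets that the annotation table does not name, so counts of measured genes are not the coverage of the array. No ferredoxin, ammonium assimilation, 14-3-3, molybdate transport or haemoglobin gene of these lists was measured under a name, and they were not analysed here. The other enzyme that carries siroheme in plants is sulfite reductase, of sulfur assimilation, encoded by SIR (AT5G04590). SIR stood at 5.89 ± 0.26 under KCl and 7.53 ± 0.49 under KNO3 over both genotypes (log2, mean ± SD, n = 6 each). It rose by 1.51 in wild type and 1.77 in the mutant (limma adjusted p = 0.0113 and 0.00412), with no KNO3 sample among the KCl samples. Over both genotypes 7.08% of all probe sets had no overlap of the salts, in either direction. The siroheme list thus had 1 of 2 measured genes higher and SIRB not passed, where 3.32% of all probe sets rose in wild type and 3.17% in the mutant. Of 11 listed genes for tetrapyrrole steps that precede the siroheme branch or lead to haem, 7 were measured and 0 passed in either genotype. In limma 0 passed at an unadjusted p under 0.05 too, where 16.5% of all probe sets did in wild type and 15.6% in the mutant. HEMA3 and hemb2 lay below the median of all 12 samples and HEME1 below that of 6, so a change in these 3 may not be measurable here. The average changes of the 7 ran from -0.18 to 0.16 with a median of -0.02. HEMA2 and HEMA3, for glutamyl-tRNA reductase, stood at -0.00059 and -0.02, GSA1, for the aminotransferase of the next step, at -0.18, and HEMB1, for porphobilinogen synthase, at -0.09.

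Beside CNX6, no other molybdenum cofactor synthesis gene of the 8 listed was measured under a name. Of the other molybdenum enzymes 2 of 9 listed were measured, AT5G44720 and AT1G30910, which encode MOSC-domain proteins of the mitochondrial amidoxime-reducing type. They stood at average changes of 0.11 and 0.07 and 0 passed in either genotype (limma; 0 at an unadjusted p under 0.05).

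Of 3 measured genes listed for nitrite transport into plastids 2 rose, and of 3 measured dehydrogenase genes of the oxidative pentose phosphate pathway 2 rose and 1 fell. AT5G62720 and AT3G47980 encode related HPP-family proteins of the plastid envelope that transport nitrite. AT5G62720 went from 1.24 ± 0.30 to 5.73 ± 0.15 in wild type and from 1.20 ± 0.22 to 5.80 ± 0.20 in the mutant, and its KCl values lay below the medians of their samples, so the size of its change is uncertain. AT3G47980 went from 3.88 ± 0.36 to 7.73 ± 0.27 and from 3.71 ± 0.44 to 7.87 ± 0.26 (log2, mean ± SD, n = 3 each). AT3G47980 rose by 3.85 and 4.17 in wild type and mutant in its brighter probe set, and by 4.72 and 4.81 in its other probe set, whose 6 KCl values lay below the medians of their samples, so that this size is uncertain too. The third listed gene, AT1G68570 of the NPF transporter family, stood at 0.64 and 0.36 and did not pass (limma adjusted p = 0.412 and 0.741), so the nitrite transport list had 2 of 3 higher in each genotype, against 3.32% and 3.17% of all probe sets in wild type and mutant.

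The oxidative pentose phosphate pathway supplies NADPH, from which root plastids draw electrons for nitrite reductase. Of 9 listed dehydrogenase genes of this pathway, 3 were measured, all of 6-phosphogluconate dehydrogenase. Which cell compartment each enzyme works in was not examined here, so their changes are not read as changes of supply to plastids. Averaged over genotypes, AT5G41670 rose by 4.29 ± 0.13, AT1G64190 rose by 2.76 ± 0.08 and AT3G02360 fell by 0.47 (SE 0.07; limma adjusted p = 0.000687). Of all probe sets 3.32% rose in wild type, 3.17% in the mutant and 5.82% on average, and 2.19%, 1.95% and 5.44% fell. AT3G02360 stood at -0.43 in wild type alone (adjusted p = 0.022). Its value there ran from -0.48 to -0.37 under all alternatives run, but the call was lost with median centring and among brighter probe sets only (limma adjusted p = 0.0989 and 0.0522) and without wild-type KCl replicate 1, 2 or 3 or wild-type KNO3 replicate 1 or 3 (0.0532 to 0.0997). Both measured reference genes, AT4G34270 and AT2G28390, stood at 0.05 and -0.22 and did not pass.

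**Figure D4:**
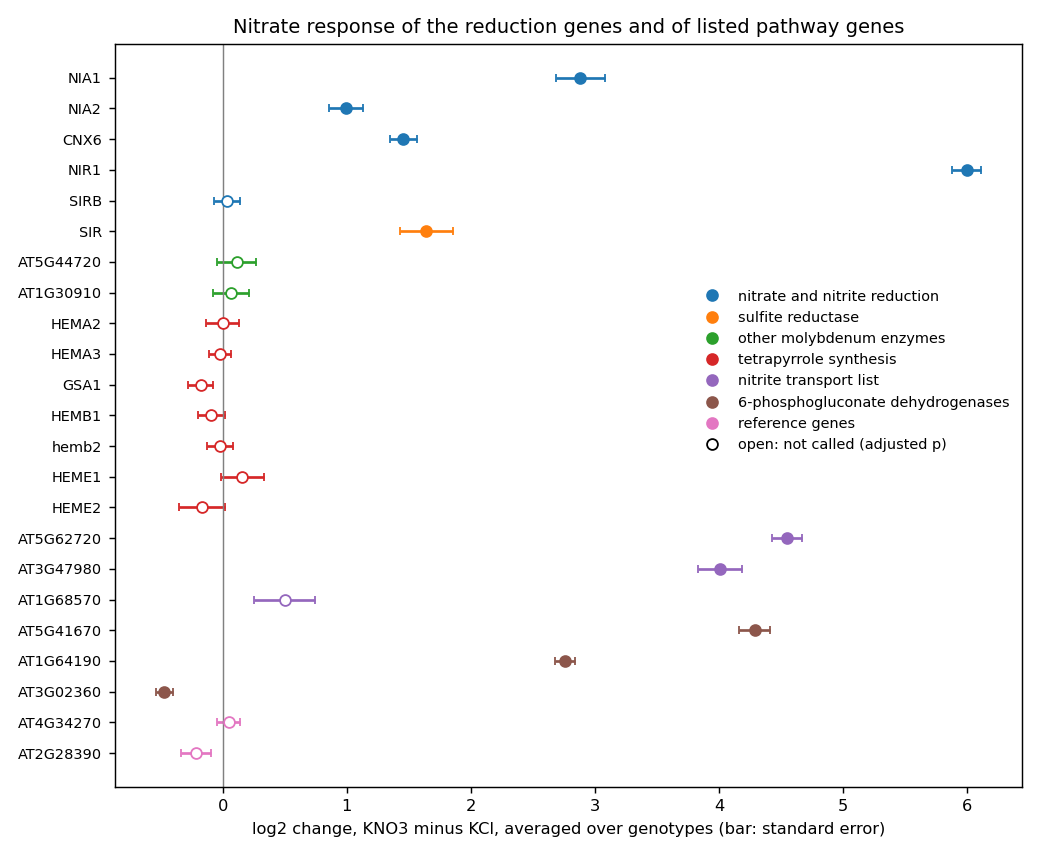
Average nitrate change over both genotypes (horizontal axis, log2, bars for the SE) of the 5 genes and of the listed pathway and reference genes measured under a name. Filled points passed an adjusted p of 0.05 and open points did not; NIR1, both HPP-family genes and AT5G41670 lie at 4 or more, and the tetrapyrrole genes lie within 0.2 of 0.

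The genes with the most similar profiles were found by Pearson's r over the 12 samples, among 13511 probe sets that name 1 gene. The samples fall into a KCl and a KNO3 cluster and share their arrays, so r is given as a description. For NIR1 the highest were AT1G64190 and AT5G41670, the 6-phosphogluconate dehydrogenase genes above, both at 0.997, followed by AT3G07350, AT5G10210 and AT2G48080 at 0.996. The most opposite were AT3G03870 (-0.992) and AT1G55790 (-0.989). For NIA1 they were AT3G58760 (0.993), AT1G71980 (0.990), AT4G39780 (0.989), AT5G54130 (0.989) and PMEAMT (0.987), a phosphoethanolamine methyltransferase gene, and the most opposite were AT3G03870 and AT5G11070, both at -0.986.

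For NIA2 the values were lower. They were 0.972 for AT1G54220, 0.963 for AT5G52050, 0.962 for AT3G03040 and 0.954 for AT3G54390 and AT3G58760, the last of which also led the NIA1 list. The most opposite were XERICO (-0.970), a RING-type zinc finger gene, and AT3G22540 (-0.967). For CNX6 the most similar were AT5G14700 (0.988), AT1G67910 (0.984), AT4G09620 and AT5G07890 (both 0.983) and AT3G19030 (0.982), and AT3G02360 (-0.966) was the most opposite, ahead of AT1G55790 (-0.964). SIRB had no gene above 0.877, the value of ATG8G, and the 5 genes closest to it had average nitrate changes from 0.01 to 0.10. Of these 5, 4 had means under 1 on the log2 scale, below the sample medians.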

How the data were processed

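Labelled cRNA from total root RNA of 12 samples was hybridised to single-channel Affymetrix arrays, per the labels' protocols. The authors deposited 1 log2 value per probe set and sample. How they corrected, normalized and summarised the probes is not given in the sources used here. Their log base was settled from the hybridisation controls: their nominal concentrations set cre above bioB by 6.06 on a log2 scale or 4.20 on a natural log scale, and the values differed by 6.24. No counts underlie these values, and the number of arrays limits the precision (median SE 0.164 for a difference between groups of 3).

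Of 22810 probe sets, 64 controls were left out. The annotation table named 1 gene for 13513 probe sets, and 13436 of these matched a locus of TAIR10.1. It named several genes for 503 probe sets and had no entry for 8730, those of NIA1, NIA2 and NIR1 among them. A listed gene not measured under a name may thus still have a probe set. No coordinates were used. For a listed gene with more than 1 probe set, the brightest was taken. All 22746 probe sets and 12 samples entered a model of 4 group means in limma 3.58.1 in R 4.3.3, without an intensity trend, and two-sided p-values were adjusted by the Benjamini-Hochberg method over all of them, at 0.05 and with no fold threshold. The fit and the exact test were tested on simulated data. Alternatives were a replicate block, a random salt and number block, an intensity trend, array weights, quantile normalization, median centring, brighter probe sets only and each sample left out.

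Same-numbered samples were checked for pairing by the correlation of their deviations from group means over the brighter probe sets. It was 0.276 to 0.726 between genotypes within a salt, in all 6 pairs, and -0.136 to 0.241 between salts. The numbers were therefore taken to pair genotypes within a salt and not salts.

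The 5 genes, the lists and the tests were chosen with earlier results of these data known. Named were the 5 genes, up to 4 measured genes of each list with called genes first, and for each of the 5 the 5 most similar and 2 most opposite genes. Promoter motifs were not searched.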

Additional observations from a re-analysis of the deposited data

How the results depend on the processing

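The nitrate calls of NIA1, NIR1 and CNX6 in wild type, in tga1 tga4 and on average held under all 7 other settings and without any 1 sample. So did those of NIA2 in the mutant and on average. NIA2 in wild type stood at 0.68 with quantile normalization (limma adjusted p = 0.0632) and at 0.62 to 0.87 without 1 sample. The replicate block and the random salt and number block changed no call of the 5 genes. Either block raised the number of probe sets called for the difference between responses from 1 to 2, as did array weights and median centring, and it ran from 0 to 2 without 1 sample (0 without wild-type KCl replicate 3 or mutant KNO3 replicate 1). Array weights raised the mutant count of calls from 1165 to 1822. Without 1 sample this count ran from 720 (without mutant KNO3 replicate 1) to 1221 and that of wild type from 815 (without wild-type KNO3 replicate 1) to 1326. The count of the genotype difference under KCl, 4 with all samples, ran from 2 (without wild-type KCl replicate 2 or mutant KCl replicate 3) to 18 (without mutant KCl replicate 1). Changes that did not pass turned sign in places. SIRB in the mutant was -0.0069 with array weights, -0.031 with quantile normalization and -0.023 with median centring, NIR1 between genotypes under KNO3 was 0.023 with quantile normalization, and the difference between responses of CNX6 was -0.028 with median centring. Without 1 sample, SIRB ran from -0.0012 to 0.18 in wild type, -0.10 to 0.083 in the mutant, -0.015 to 0.092 on average, -0.053 to 0.13 between genotypes under KCl, -0.16 to 0.031 under KNO3 and -0.18 to 0.016 for the difference between responses. NIA1 ran from -0.40 to 0.11 under KCl, -0.32 to 0.14 under KNO3 and -0.18 to 0.35 for the difference between responses, NIR1 from -0.19 to 0.060 under KNO3 and CNX6 from -0.10 to 0.14 for the difference between responses. The nitrate change of NIA2 minus that of NIR1 was -5.35 in wild type alone and -4.66 in the mutant alone, and that of NIA2 minus SIRB was 0.69 and 1.22. With both genotypes of a salt and number permuted together as a replicate block, no pair of genes could pass (smallest exact p 0.1), and the differences were as in the report. They were 1.89 for NIA1 minus NIA2, -3.12 for NIA1 minus NIR1, 1.43 for NIA1 minus CNX6, 2.85 for NIA1 minus SIRB, -5.0 for NIA2 minus NIR1, 0.96 for NIA2 minus SIRB, 4.54 for NIR1 minus CNX6, 5.96 for NIR1 minus SIRB and 1.42 for CNX6 minus SIRB. This permutation was added after the data were seen. The cause of the other shifts was not tested. The sulfite reductase gene SIR was called in both genotypes throughout. PYK10, a root marker not called in the report, passed as lower on average with 5 settings, the replicate block among them (limma adjusted p = 0.00839 to 0.0431), and without tga1 tga4 KNO3 replicate 3. The number of arrays limits the precision, and whether signal was compressed at the bright end was not tested.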
